A study of Mus musculus with 300 samples.

Results

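The comparison was between the second-brightest and the dimmest cells of an ID4-EGFP reporter pool from adult mouse testis. Cells labelled Q2 for EGFP epifluorescence were set against cells labelled Q4, the dimmest quartile, within each of 4 preparations. These were 150 of the 300 cells of the series, 78 in Q2 and 72 in Q4. Preparations 1 to 4 gave 17, 21, 20 and 20 Q2 cells and 18, 20, 15 and 19 Q4 cells.

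All cells came from untreated adult mice carrying an ID4-EGFP reporter, in which EGFP follows the Id4 locus, a marker of spermatogonial stem cells. Each preparation was made from at least a pair of animals, and every cell had passed a sort for bright CD9 and for EGFP, so both quartiles were reporter-positive and Q4 was not a reporter-negative control. Single cells were captured on a Fluidigm C1 chip, imaged and copied into cDNA by SMARTer chemistry, so the libraries are unstranded. The number in the sample titles was taken as the preparation, and cells were not counted as replicates, so n = 4.

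Spermatogonial stem cells sit on the basement membrane of the seminiferous tubule and either renew themselves or give rise to progenitors that later differentiate. Glial cell line-derived neurotrophic factor (GDNF) from neighbouring somatic cells acts on them through the co-receptor GFRA1 and the receptor tyrosine kinase RET, and fibroblast growth factors (FGFs) act through their own receptors. Both feed the ERK and AKT kinase cascades, which raise transcription factors such as ETV5 and also induce their own inhibitors, the DUSP phosphatases and Sprouty proteins. Kit, Stra8 and Dnmt3b mark the later, differentiating spermatogonia.

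Values were the mean over cells of log2(FPKM + 1) per preparation and quartile, where FPKM counts fragments after correction for transcript length and for the size of the library. Tests covered the 10411 genes that reached 1 FPKM in 30 or more of the 300 cells. A gene was called when its adjusted p (limma with the preparation as block, Benjamini-Hochberg over all genes tested) was under 0.05. Differences below are Q2 minus Q4 on this log2 scale, which understates the change of genes with low values. SE is limma's standard error, which draws on the spread in Q1 to Q4 and not only on the Q2 and Q4 pairs.

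Both groups had the transcripts of spermatogonia. Ddx4 and Dazl, germ cell RNA-binding proteins, stood at 1 FPKM or more in at least 98.7% of cells of both groups, and Uchl1 was found in all of them. By a rule that asks for at least 50% of a cell type's markers at 5 FPKM or more, 78 of 78 Q2 cells and 71 of 72 Q4 cells matched the spermatogonium markers. The same rule placed 3 Q2 and 3 Q4 cells with macrophages and 1 Q4 cell with peritubular myoid cells. It placed none with Sertoli, Leydig, endothelial or erythroid cells, pachytene spermatocytes or spermatids. If cells were independent draws, 0 cells would allow a share of up to 3.85% in Q2 and 4.17% in Q4. That limit ignores the preparations and missed transcripts, so it may be too tight. With 1 FPKM in place of 5, 3 Q4 cells and no Q2 cell matched pachytene spermatocytes and 1 Q2 cell matched spermatids. The summed macrophage markers ranged from 0.96 to 13.47 over the Q2 means and from 1.08 to 5.24 over the Q4 means, and none of the tested markers of these other cell types was called. Genes at 1 FPKM or more per cell numbered 5485 ± 889 in Q2 and 5356 ± 810 in Q4 (SD, n = 4), higher in Q2 in 3 of 4 preparations (exact two-sided sign-flip p = 0.25). Relative sequencing depth was 1.06 ± 0.13 and 1.02 ± 0.12 (SD, n = 4) and was higher in Q2 in 4 of 4 preparations (exact sign-flip p = 0.125, the smallest that 4 pairs allow). A fit with genes per cell as a covariate called 41 genes between Q2 and Q4, 26 of them among the 32 reported below, and the part of depth in the results was not tested.

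Between Q2 and Q4, 32 genes were called, 0.307% of those tested. Higher in Q2 were 26 genes (0.25%), led by Tcl1, Etv5 and Dusp6, and 6 genes (0.0576%) were lower. An unadjusted p under 0.05 was reached by 1182 genes, 11.4%. Each of the 32 differed in the same direction in all 4 preparations, which held for 1876 genes or 18% of all tested, and 18 of the 26 and 5 of the 6 had no overlap between the Q2 and Q4 means, against 228 (2.19%) and 106 (1.02%) of all genes. With only the Q2 and Q4 means in the fit, 23 genes were called, 17 of them among the 32. The number of calls was unstable. It was 18 and 22 without preparations 1 and 2, and 4 without preparation 3 or without preparation 4, where Tcl1, Etv5, Dusp6 and Sdc4 were left, and it was 5 without the preparation block, which added Nefm to these. After each mean was centred on its median gene there were 28 calls, 16 higher and 12 lower, so the split moved from 81.3% to 57.1% higher. The genes nearest outside the threshold were Ppfibp2, Abr, Tet3 and Tox3, all at an adjusted p of 0.0566, and the highest value among the called genes was 0.0449.

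**Figure D1:**
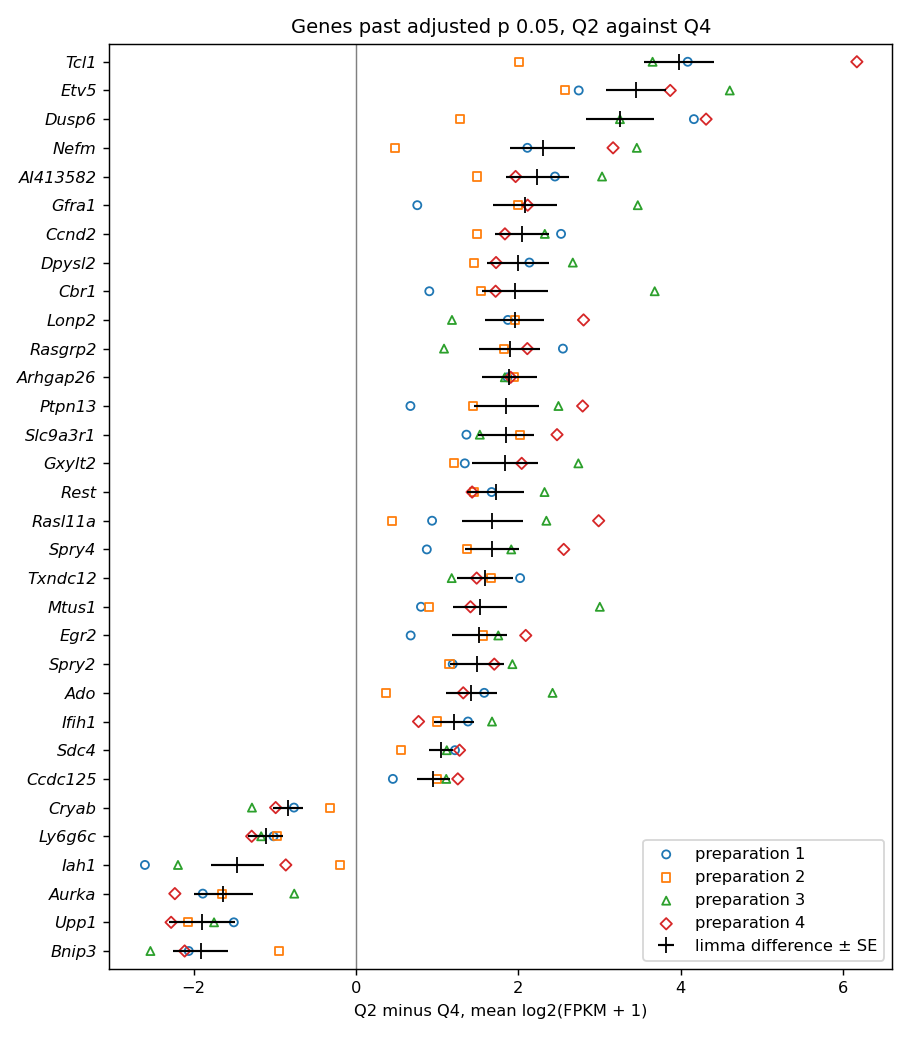
Difference between Q2 and Q4 cells (horizontal axis, mean log2(FPKM + 1), Q2 minus Q4) for the 32 called genes, with open symbols for the 4 preparations and the bar for the limma difference ± SE. All symbols of the 26 upper genes lie right of 0 and all symbols of the 6 lower genes lie left of it, and the differences run from 3.98 for Tcl1 to -1.91 for Bnip3.

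Tcl1, Etv5 and Dusp6 were called under each of the 15 alternative settings. Tcl1 encodes a co-activator of the kinase AKT. Its mean level was 6.01, 6.11, 5.62 and 7.21 in the Q2 cells of preparations 1 to 4 and 1.92, 4.10, 1.97 and 1.04 in the Q4 cells. The groups did not overlap, although the Q4 cells of preparation 2 came nearest to Q2. The difference was 3.98 ± 0.43 (SE, n = 4; limma adjusted p = 8.04e-06). Tcl1 transcript was found in 83.3% ± 10.3 of Q2 cells and 45.6% ± 15.8 of Q4 cells (SD, n = 4), and where it was found its level was 7.48 ± 0.38 against 4.56 ± 1.12.

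Etv5 encodes an ETS-family transcription factor that GDNF and FGF raise in these cells. It stood at 3.96, 4.85, 5.35 and 5.03 in Q2 and at 1.22, 2.27, 0.74 and 1.15 in Q4, again without overlap. The difference was 3.45 ± 0.37 (SE, n = 4; limma adjusted p = 8.04e-06). The share of cells with Etv5 separated the quartiles the furthest of these genes, 90.7% ± 5.96 in Q2 against 32.3% ± 15.5 in Q4, and ran from 82.4% to 95% over the Q2 and from 20% to 55% over the Q4 preparations.

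Dusp6, a phosphatase that switches ERK off, was the third. Levels were 5.07, 4.27, 4.35 and 5.23 in Q2 and 0.91, 2.98, 1.10 and 0.91 in Q4. Preparation 2 held both the lowest Q2 and the highest Q4 value, and the groups still did not overlap. The difference was 3.25 ± 0.42 (SE, n = 4; limma adjusted p = 0.000135), with transcript in 85.8% ± 6.59 of Q2 and 38% ± 21.8 of Q4 cells.

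In the annotation of GRCm38, Tcl1 lies on chromosome 12 (105216750 to 105222793, minus strand), Etv5 on chromosome 16 (22381309 to 22439719, minus strand) and Dusp6 on chromosome 10 (99263231 to 99267489, plus strand). No exon of another gene overlaps theirs. Their promoters are shown because these genes had the largest differences among those called and because ETS factors such as ETV5 bind DNA around a GGAA core. Whether ETV5 acts on these genes was not tested. RefSeq promoters for GRCm38.p6 run from 250 bases before to 50 after a transcription start. Capitals mark matches to AGGAAG or CGGAAG on either strand, so CTTCCT and CTTCCG count as well. Etv5 has a pair of annotated starts, of which the upstream one has no match.

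Tcl1, chr12:105222688-105222987, minus strand: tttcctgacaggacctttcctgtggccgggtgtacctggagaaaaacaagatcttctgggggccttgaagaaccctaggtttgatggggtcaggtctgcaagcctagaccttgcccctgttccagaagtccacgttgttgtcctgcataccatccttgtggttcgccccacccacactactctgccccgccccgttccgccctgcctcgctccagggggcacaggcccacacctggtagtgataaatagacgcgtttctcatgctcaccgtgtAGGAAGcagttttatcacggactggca
Etv5, upstream start, chr16:22439521-22439820, minus strand: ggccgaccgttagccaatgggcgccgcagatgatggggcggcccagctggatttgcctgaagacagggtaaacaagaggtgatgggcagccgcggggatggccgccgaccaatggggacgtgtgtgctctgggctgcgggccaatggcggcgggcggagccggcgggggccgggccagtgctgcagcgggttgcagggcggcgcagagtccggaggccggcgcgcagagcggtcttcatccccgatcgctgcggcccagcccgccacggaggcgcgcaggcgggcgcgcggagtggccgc
Etv5, downstream start, chr16:22438319-22438618, minus strand: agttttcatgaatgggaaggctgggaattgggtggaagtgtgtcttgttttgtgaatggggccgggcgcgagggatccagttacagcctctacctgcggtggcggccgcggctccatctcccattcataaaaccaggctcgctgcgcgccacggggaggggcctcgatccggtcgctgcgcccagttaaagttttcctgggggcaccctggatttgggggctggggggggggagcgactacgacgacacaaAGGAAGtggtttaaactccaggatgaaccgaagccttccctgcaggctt
Dusp6, chr10:99262981-99263280, plus strand: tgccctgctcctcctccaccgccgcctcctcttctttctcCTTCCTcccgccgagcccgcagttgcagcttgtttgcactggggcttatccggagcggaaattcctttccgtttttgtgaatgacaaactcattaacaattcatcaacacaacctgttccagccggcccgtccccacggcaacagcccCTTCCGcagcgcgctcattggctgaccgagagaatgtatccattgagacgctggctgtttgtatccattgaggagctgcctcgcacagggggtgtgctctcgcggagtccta

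Matches were counted over all promoters available. A RefSeq promoter was matched for 19 of the 26 higher genes, 5 of the 6 lower ones and 7846 of the 10411 genes tested. At least 1 of AGGAAG and CGGAAG stood in 10 of the 19 promoters, 52.6%, and in 60.4% of all those matched. AGGAAG alone was in 7 of 19 (36.8%, against 36% of all), and CGGAAG alone in 5 of 19 (26.3%, against 38.7%). Another 4 motifs were searched on both strands. ACCGGAAG, which contains CGGAAG, was in 1 of the 19 and in 6.16% of all, CACGTG in 2 of 19 and 12.9% of all, and TGACGTCA and a CArG box sequence in 0 of 19 and in 4% and 0.0255% of all. A match is a run of letters and not a bound site, and the motifs and genes were picked with the differences known.

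Among the receptors, Gfra1 was called. Its level was 1.87, 3.75, 4.19 and 3.41 in Q2 and 1.12, 1.75, 0.72 and 1.30 in Q4. The lowest Q2 value, that of preparation 1, lay just above the highest Q4 value. The difference was 2.09 ± 0.40 (SE, n = 4; limma adjusted p = 0.0144), and 9 of 15 alternatives kept the call. Counted by cells, Gfra1 was found in 66.2% ± 29.5 of Q2 and 28.5% ± 8.36 of Q4 cells (SD, n = 4). In preparation 1 the share was lower in Q2, 23.5% against 27.8%, and in the other preparations it was higher by 51.7 percentage points on average (4 preparations: 37.7 points, exact two-sided sign-flip p = 0.25). Preparation 1 turned with the cut-off: any value above 0 gave 47.1% of Q2 against 27.8% of Q4 cells, and 5 FPKM gave 23.5% against 16.7%. With either of these the share was higher in Q2 in 4 of 4 preparations, by 40.8 and 40.6 points (exact sign-flip p = 0.125 each). Exons of Gfra1 overlap those of a predicted gene on the opposite strand, and reads from both cannot be told apart in an unstranded library.

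Sdc4, syndecan-4, is a heparan sulphate proteoglycan of the cell surface and can serve as a co-receptor for FGFs. It was the most abundant of the called genes and had a small difference with little spread. Levels were 10.81, 10.91, 11.05 and 10.52 in Q2 and 9.59, 10.35, 9.93 and 9.24 in Q4, with no overlap. The difference was 1.04 ± 0.15 (SE, n = 4; limma adjusted p = 0.000575), and nearly all cells of both groups held the transcript, 100% and 98.3%. The call was kept in 13 of 15 alternatives. It was lost with the log2 of the mean FPKM, where the difference was 0.44, and without trended and robust variances. Mean FPKM was 2003 ± 268 in Q2 and 1537 ± 534 in Q4 (SD, n = 4). Of the 9 tested genes in the list of GDNF and FGF receptors, Gfra1 and Sdc4 were called and 0 were lower, with a list median of 0.46 against 0.05 for all genes. Leaving out preparation 2, 3 or 4 left 1 call, and the median was 0.19 without preparation 4. Ret, the signalling partner of GFRA1, differed by 1.36 ± 0.36 (adjusted p = 0.0885) and did not pass, nor did Fgfr1, an FGF receptor, at -0.16 ± 0.32.

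Among 11 tested transcription factors and other genes that respond to GDNF or FGF, 4 were called higher and 0 lower, with a median of 0.61, or 0.46 to 0.99 with 1 preparation left out. The number fell to 2 without preparation 3 or without preparation 4. The 4 were Etv5, Tcl1, Ccnd2 and Egr2. Ccnd2, cyclin D2 of the G1 phase, stood at 5.85, 6.44, 6.02 and 6.43 in Q2 and 3.32, 4.95, 3.70 and 4.60 in Q4. All Q2 means lay above all Q4 means (difference 2.05 ± 0.33, SE, n = 4; limma adjusted p = 0.00365). In the list of 15 tested D-type cyclins and G1 regulators Ccnd2 was the only call, with a median of 0.24 (0.16 to 0.36 with 1 preparation left out). Egr2, an early-response zinc-finger factor, had values of 1.86, 3.44, 2.34 and 2.48 against 1.19, 1.87, 0.59 and 0.39, and the groups met at their edges. Its difference was 1.52 ± 0.34 (SE, n = 4; limma adjusted p = 0.0449). Etv4 and Bcl6b, other GDNF-responsive factors, differed by 0.48 ± 0.25 and 0.61 ± 0.34 and did not pass.

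Inhibitors of ERK signalling were higher in Q2 as far as they were called. Of 9 tested members, 3 were called higher and 0 lower, and the differences of all 9 were above 0, as were 55.4% of those of all genes, with a median of 0.73. Only Dusp6 was still called without preparation 3 or without preparation 4, where the medians were 0.54 and 0.67. Spry4, a Sprouty inhibitor of receptor tyrosine kinase signalling, stood at 0.96, 2.66, 2.53 and 2.90 in Q2 and 0.08, 1.29, 0.62 and 0.34 in Q4. Preparation 1 was low in both quartiles, so the groups overlapped although every pair differed the same way (1.68 ± 0.33, SE, n = 4; limma adjusted p = 0.0206). Its relative Spry2 had Q2 values of 2.06 to 3.10 and Q4 values of 0.76 to 1.48, with no overlap (1.49 ± 0.33; limma adjusted p = 0.0449). Dusp7, Spred1, Spred2, Dusp5, Spry1 and Dusp9 had differences of 0.25 to 0.82 and were not called.

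Stem cell genes outside these routes had differences above 0 that did not pass. In the list of 15 tested stem cell associated genes, Gfra1 and Etv5 were called. All 15 differences were above 0, as were 55.4% of those of all genes, and the median was 1.06 against 0.05. With 1 preparation left out the median was 0.75 to 1.25. Without preparation 2, 3 or 4 there was 1 call, and without preparation 1 or 2, 14 differences were above 0. The transcription factors Hhex (1.72 ± 0.41, adjusted p = 0.0653), Foxc2 (1.5 ± 0.35, adjusted p = 0.0645) and Eomes (1.30 ± 0.33, adjusted p = 0.0725) were just short of the limma threshold, and Foxc2 and Hhex passed it in 2 alternatives each. Nanos2, an RNA-binding repressor of differentiation, differed by 0.43 ± 0.26. Zbtb16 and Sall4, transcription factors of undifferentiated spermatogonia, differed by 0.69 ± 0.34 and 0.39 ± 0.26. They belong to another list, of undifferentiated and progenitor genes, in which 6 of 19 differences were above 0. Below 0 in that list were, among others, Utf1 (-0.90), Lin28a (-0.67), Taf4b (-0.56), Uchl1 (-0.41) and Foxo1 (-0.35). Of a panel of 20 germ cell genes 3 were called, Gfra1, Etv5 and Ccnd2, against 0.307% of all genes tested. The panel and all gene lists were chosen with earlier results of these data known. Their counts and medians are therefore descriptive and no independent support. The surface protein list (13 tested) had Gfra1 as its only call and a median of 0.81. Cd9, on which the cells had been sorted, differed by 0.98 ± 0.31 (adjusted p = 0.186).

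None of the 9 tested differentiation genes was called, yet 8 of their differences were below 0 and the median was -0.76. Of all genes tested, 55.4% had differences above 0. With 1 preparation left out the median of the differentiation genes was -1.13 to -0.59. Kit, the receptor for stem cell factor, had means of 1.36, 0.51, 0.33 and 1.76 in Q2 and 1.92, 0.95, 1.69 and 4.70 in Q4. It was lower in Q2 in each pair, but the groups overlapped and preparation 4 held the highest value of both. The difference was -1.33 ± 0.44 (limma adjusted p = 0.213), and -1.74 (adjusted p = 0.0338) with genes per cell as a covariate, the lowest of its alternatives, which ran up to 0.723. Kit was found in 24.6% ± 9.21 of Q2 and 47.2% ± 26.9 of Q4 cells, lower in 4 of 4 preparations (exact two-sided sign-flip p = 0.125). Dnmt3b, a DNA methyltransferase, differed by -1.59 ± 0.39 and Crabp1, a retinoic acid-binding protein, by -1.35 ± 0.33 (adjusted p = 0.0681 for each). Cited1 differed by -1.60 ± 0.44 (adjusted p = 0.108). Stra8, induced by retinoic acid, differed by -0.76 ± 0.44 (adjusted p = 0.557). With the covariate 3 of these 9 genes were called lower, and without preparation 2 there were 2.

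**Figure D2:**
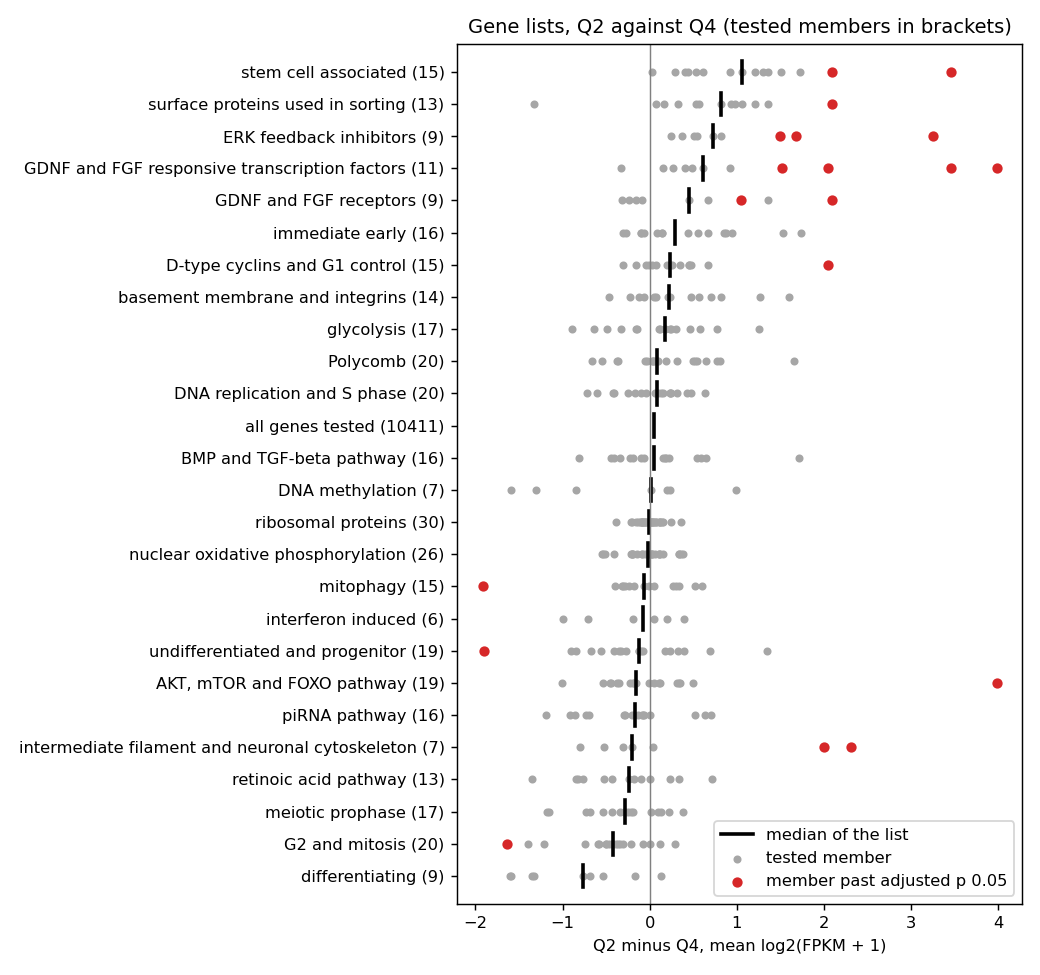
Q2 minus Q4 difference (horizontal axis, mean log2(FPKM + 1)) of each tested member of the 25 gene lists, with black bars for list medians and red points for called genes. The stem cell list has the highest median, 1.06, the differentiating list the lowest, -0.76, and called genes are few in every list.

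Other higher genes lay outside the signalling lists. Nefm, the medium neurofilament subunit, stood at 2.91, 2.04, 3.52 and 3.21 in Q2 and at 0.80, 1.57, 0.06 and 0.04 in Q4. It was close to 0 in the Q4 cells of preparations 3 and 4, and the groups did not overlap (2.30 ± 0.40, SE, n = 4; limma adjusted p = 0.00791). Its exons overlap those of Nefl on the opposite strand. Dpysl2, which binds tubulin and guides axon growth in neurons, ranged from 3.98 to 5.57 in Q2 and from 1.85 to 3.84 in Q4 (2.00 ± 0.38; limma adjusted p = 0.0144). The other 5 of the 7 tested genes in the list of neuronal cytoskeleton were not called, and the list median was -0.21, or -0.38 to 0.10 with 1 preparation left out.

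Rasgrp2 and Arhgap26 were among the larger differences. Rasgrp2, an exchange factor for RAP proteins, ranged from 3.78 to 4.94 in Q2 and from 1.68 to 2.78 in Q4, a difference of 1.89 ± 0.38 (limma adjusted p = 0.0225). Arhgap26 ranged from 3.03 to 4.28 against 1.17 to 2.33 and was found in 93.1% of Q2 and 55% of Q4 cells (1.89 ± 0.34; adjusted p = 0.00898). Its 4 paired differences were nearly alike, but the gene has more than one entry in the annotation. The tyrosine phosphatase Ptpn13 (1.85 ± 0.40), the peroxisomal protease Lonp2 (1.95 ± 0.37) and the carbonyl reductase Cbr1 (1.96 ± 0.40) made up the rest of the 12 largest by the naming rule, which skips predicted genes and accession-type names such as AI413582. Cbr1 overlapped between the groups because its Q2 value in preparation 1 was 1.81 and its highest Q4 value 2.23.

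The other called genes are named here after their values were seen. AI413582 (2.24), the scaffold protein gene Slc9a3r1 (1.85), Gxylt2 (1.83), Rest (1.72), Rasl11a (1.68), Txndc12 (1.59), Mtus1 (1.53), Ado (1.42), Ifih1 (1.21) and Ccdc125 (0.95) were higher in Q2. Rest encodes a repressor of neuronal genes, and stood at 2.70, 4.35, 5.40 and 4.67 in Q2 against 1.03, 2.90, 3.08 and 3.24 in Q4. Ifih1, a sensor of double-stranded RNA, was found in 35.9% of Q2 and 9.5% of Q4 cells, while none of the 6 tested interferon-induced genes was called (median -0.07, and -0.32 to 0.21 with 1 preparation left out). Slc9a3r1, Gxylt2, Rest, Rasl11a and Ado overlapped between the groups, and Ccdc125 kept its call in 1 alternative. Exons of AI413582 overlap those of Hmga1 on the opposite strand. Exons of Mtus1, Ccnd2, Rasgrp2, Arhgap26, Ptpn13 and Bnip3 also overlap those of other genes on the opposite strand.

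Lower in Q2 were Bnip3, Upp1, Aurka, Iah1, Ly6g6c and Cryab. Bnip3, a mitochondrial receptor for mitophagy that is also induced by hypoxia, stood at 4.59, 4.90, 3.67 and 4.92 in Q2 and 6.65, 5.85, 6.20 and 7.03 in Q4. The groups did not overlap and the difference was -1.91 ± 0.34 (SE, n = 4; limma adjusted p = 0.00896). No other of the 15 tested mitophagy genes was called, and the list median was -0.07, or -0.13 to 0.00 with 1 preparation left out. Upp1, uridine phosphorylase, was at 2.94, 4.18, 4.14 and 4.06 against 4.45, 6.24, 5.89 and 6.34, also without overlap (-1.90 ± 0.41; limma adjusted p = 0.0449).

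Aurka, a kinase of the mitotic spindle, was at 1.75, 2.87, 2.12 and 3.86 in Q2 and at 3.64, 4.52, 2.88 and 6.09 in Q4. Within each preparation Q4 was higher, but preparation 4 was high and preparation 3 low in Q4, and the groups overlapped (-1.63 ± 0.36, SE, n = 4; limma adjusted p = 0.0449). The call of Aurka was kept in 5 of 15 alternatives and was lost when any 1 preparation was left out. Aurka was the 1 called gene among 20 tested genes of G2 and mitosis, of which 18 had differences below 0 and whose median was -0.42. Of all genes tested, 55.4% had differences above 0. With 1 preparation left out the median of the list was -0.53 to -0.30. The 20 replication genes had 0 calls and a median of 0.08, which was -0.00 after centring and -0.09 to 0.23 with 1 preparation left out, and Mki67, a marker of cycling cells, differed by -0.21 ± 0.47. Iah1 held 7.98 or less in Q2 and at least 8.03 in Q4, a narrow gap. Ly6g6c and the small heat shock protein gene Cryab were scarce, found in 6.19% and 2.38% of Q2 cells and in 20.7% and 19.5% of Q4 cells. Exons of Iah1, Ly6g6c and Cryab overlap genes on the opposite strand.

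Another 11 lists had no call in either direction. Their medians were small and moved when 1 preparation was left out, as the ranges given with them show. The median was -0.24 for 13 retinoic acid pathway genes (-0.40 to -0.30), -0.28 for 17 genes of meiotic prophase (-0.39 to -0.07) and -0.17 for 16 piRNA genes (-0.39 to -0.15). It was 0.29 for 16 immediate early genes (0.09 to 0.48), 0.22 for 14 basement membrane and integrin genes (0.13 to 0.36) and 0.09 for 20 Polycomb genes (0.04 to 0.17), the last of which was -0.00 after centring. The sign turned for 17 glycolysis genes (0.17; -0.04 to 0.17), 26 genes of oxidative phosphorylation (-0.02; -0.08 to 0.01), 30 ribosomal protein genes (-0.00; -0.05 to 0.03), 16 BMP pathway genes (0.05; -0.04 to 0.09) and 7 DNA methylation genes (0.02; -0.23 to 0.15). The AKT, mTOR and FOXO list held Tcl1 as its only call among 19 and had a median of -0.15 (-0.11 to -0.05). The list of undifferentiated and progenitor genes held Upp1 as its only call among 19 and had a median of -0.13 (-0.29 to -0.12).

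Most called genes differed in how many cells held them as well as in level. The share of cells at 1 FPKM or more was larger in Q2 for all 26 higher genes and smaller for all 6 lower genes. Among cells that held the transcript the level was also higher in Q2 for 24 of the 26, the exceptions being Slc9a3r1 and Rasl11a. These counts describe genes chosen on the same contrast. A listed 0 in a single cell can be a transcript missed in capture.

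**Figure D3:**
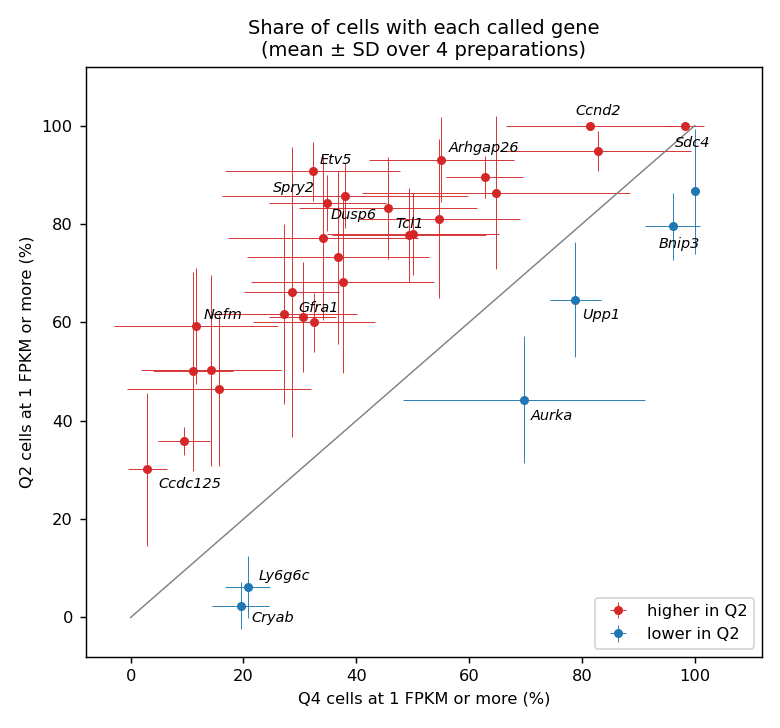
Share of Q4 cells (horizontal axis, %) and Q2 cells (vertical axis, %) at 1 FPKM or more for each called gene, as mean ± SD over the 4 preparations, with the line of equality. Red points, higher in Q2, lie above the line (Etv5 at 90.7% of Q2 and 32.3% of Q4 cells), and blue points, lower in Q2, lie below it.

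Single cells of the quartiles overlapped. Of the 26 higher genes, a Q2 cell held a median of 19 (9 to 25) and a Q4 cell a median of 10 (2 to 22). The median of Q2 was reached by 5 of the 72 Q4 cells, and 2 of the 78 Q2 cells were at or below the median of Q4. Q4 cells with Gfra1 (21 cells) held a median of 14 of these genes and Q4 cells without it (51 cells) held 9, while Q2 cells with and without Gfra1 held 21 and 18. Gfra1 is itself 1 of the 26, and the genes were chosen on this contrast, so no test was made.

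**Figure D4:**
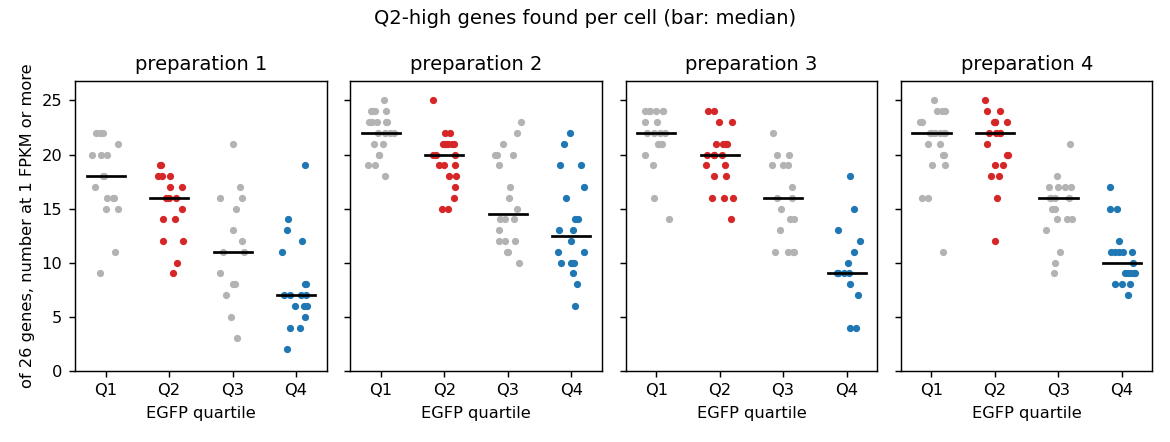
Number of the 26 genes higher in Q2 that stood at 1 FPKM or more in each cell (vertical axis), by EGFP quartile (horizontal axis) in the 4 preparations, with 1 point per cell and bars for medians. Q2 cells (red) and Q4 cells (blue) overlap in each preparation, and preparation 1 holds the lowest count, 2, in a Q4 cell.

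For the called genes, Q3 cells, between the quartiles compared, were mostly intermediate. These genes were chosen on Q2 against Q4, which by itself favours a Q3 mean in between. The share over all genes was not counted. The Q3 mean lay between those of Q2 and Q4 for 25 of the 26 higher and 6 of the 6 lower genes, and the exception was Egr2, at 0.93 in Q3 and 1.01 in Q4. Whether the drop fell more on the step from Q2 to Q3 or on that from Q3 to Q4 was tested as the difference of the steps, and 0 genes passed (limma with Benjamini-Hochberg adjustment). An unadjusted p under 0.05 was reached by 570 genes (5.47%), and among the 32 by Sdc4, Egr2 and AI413582, with a lowest adjusted p of 0.855. Sdc4 stood at 10.73, 10.82 and 10.75 in Q1, Q2 and Q3 and at 9.78 in Q4. Between Q3 and Q4 it was the 1 gene called (0.97 ± 0.15; limma adjusted p = 0.00757, 0.00961% of genes, with 685 or 6.58% at an unadjusted p under 0.05), and between Q2 and Q3 0 genes were called, with 767 (7.37%) at an unadjusted p under 0.05. Egr2 had the opposite course, 3.41, 2.53, 0.93 and 1.01 from Q1 to Q4. These pairs share cells with Q2 against Q4.

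**Figure D5:**
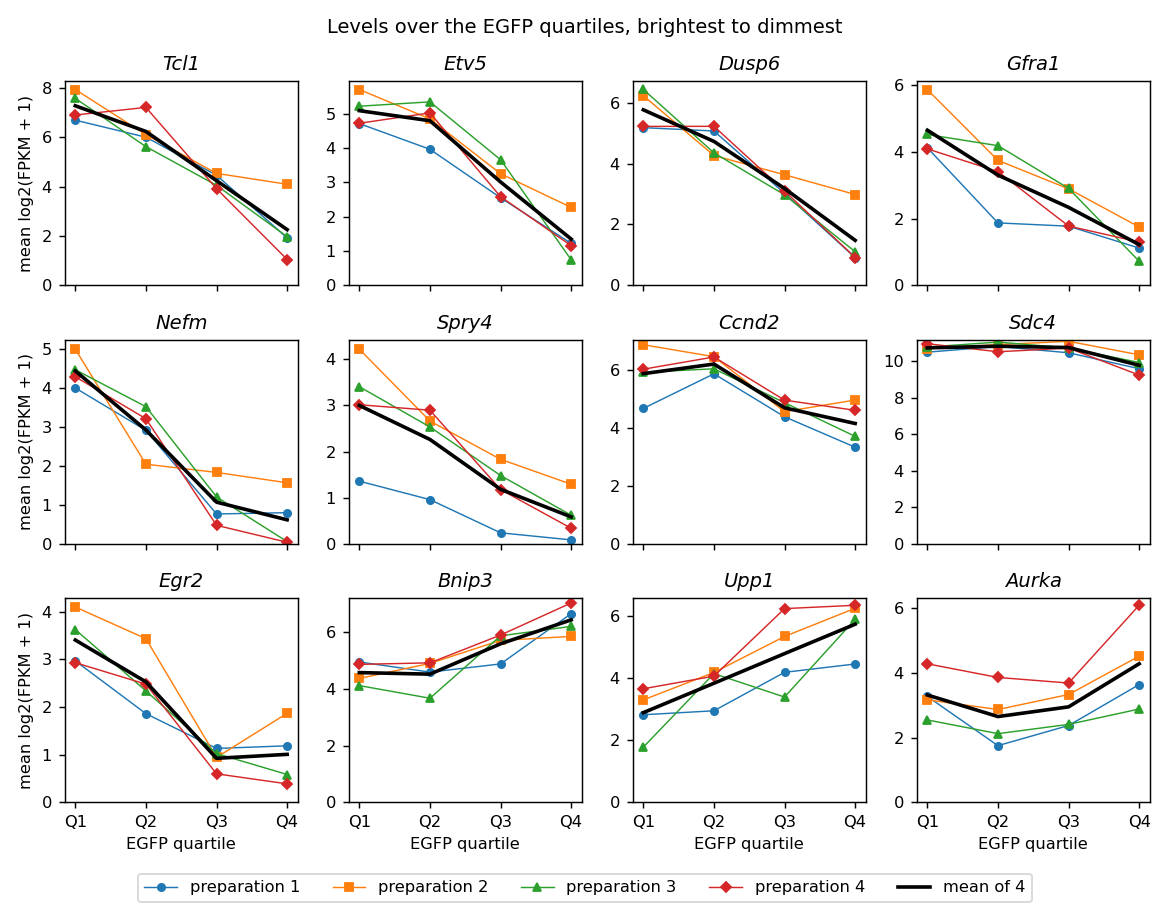
Mean log2(FPKM + 1) (vertical axis) over the EGFP quartiles from brightest to dimmest (horizontal axis) for 12 called genes, with 1 coloured line per preparation and a black line for the mean of 4. The black lines of Tcl1, Etv5 and Dusp6 step down throughout, and from Q2 to Q4 so does the line of every preparation. From Q1 to Q2 most of their coloured lines fall but some rise. In preparation 4, Tcl1 rises from 6.91 to 7.21 and Etv5 from 4.72 to 5.03. The Q1 minus Q2 difference of Etv5 was 0.29 ± 0.37 (SE). The mean of Sdc4 is level from Q1 to Q3 (10.73 to 10.75) and lower in Q4 (9.78), and Bnip3 and Upp1 are highest in Q4.

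Q1 against Q3 spans the same number of quartiles and shares no cell with Q2 against Q4, though it shares the preparations and the estimate of spread. There 102 genes (0.98%) were called, 90 higher (0.864%) and 12 lower (0.115%) in the brighter quartile. Common to both comparisons were 16 genes, 50% of the 32 and 15.7% of the 102, made up of 15 higher genes and Upp1. Of the 26 higher genes, 25 had a Q1 minus Q3 difference above 0. The exception was Sdc4, at -0.02 ± 0.15. Over all genes tested the median of Q1 minus Q3 was 0.098, against 0.048 for Q2 minus Q4. The share of all genes above 0 in Q1 minus Q3 was not counted. Among the lower genes Aurka (0.37 ± 0.36) and Cryab (0.10 ± 0.18) had differences above 0 there, and the list of G2 and mitosis had a median of 0.44 in place of -0.42.

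The difference between the comparisons was tested directly, and 0 genes passed (limma, Benjamini-Hochberg), with 565 (5.43%) at an unadjusted p under 0.05. Of the 32 called genes, 7 were at an unadjusted p under 0.05: Sdc4, Aurka, Cryab, AI413582, Etv5, Ifih1 and Txndc12. Sdc4 had the lowest adjusted p, 0.166 (1.06 ± 0.21), and Aurka was at 0.725 (-2.0 ± 0.51). For Tcl1 the 2 comparisons gave 3.98 and 3.04, for Dusp6 3.25 and 2.59, for Gfra1 2.09 and 2.32, and for Nefm 2.30 and 3.37. One gene outside the 32, Mrps18c, a mitochondrial ribosomal protein named after its value was seen, passed this test in 3 alternatives, with differences of -1.63 to -2.12.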

How the data were processed

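The deposited table gives 23354 gene names in 300 cells. FPKM is not written in it and was inferred from Cufflinks, which the submitters' processing notes list beside TopHat, Picard and FastQC. Those notes name mm10 and GRCm38 as builds. No versions are given in the sources used here. Of these names, 5602 stood at 0 in every cell and no columns were identical. Counts were not used, so no count model was applied. Relative depth was read from the size of FPKM steps, with 65.8% of the low values looked at within 0.05 of a whole step, and is approximate.

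Python 3.11.15 made 16 means of log2(FPKM + 1), per preparation and quartile. A linear model of quartile and preparation was fitted to all 16 with limma (3.58.1, R 4.3.3), with moderated, trended and robust variances, and was tested on simulated data. Q2 and Q4 means with the same title number were taken to come from the same animals and chip, the source of the pairing. The labels do not tie this number to a preparation. The deviations of these Q2 and Q4 means correlated at 0.350, 0.0927, 0.0758 and 0.230 in preparations 1 to 4. Preparations were read from the titles, and nothing states how independent they were. The limma p-values and SE rest on the spread left in the 16 means after quartile and preparation were fitted. That spread was pooled over Q1 to Q4 and moderated across genes, so it is not that of the Q2 and Q4 pairs alone. Shares and genes per cell had an exact sign-flip test over 4 pairs.

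The members, 25 lists and panel of 20 genes were chosen with earlier results of these data known. Named genes are the 12 largest called differences each way with one sign in 4 preparations, up to 4 per list by smallest p, and the panel, skipping predicted genes and clone, accession or date-like names. Alternatives changed the block, fit, pseudocount, filter, scaling, covariate, moderation and preparations. The alternative without the 10 cells matching another cell type, the motifs, the depth steps and the counts of called genes per cell were added after the data were seen. Positions come from GENCODE and promoters from RefSeq.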

Additional observations from a re-analysis of the deposited data

Results flagged for a closer look

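In 7 of 72 groups of 4 preparation means examined for the called genes and the per-cell measures, 1 preparation stood apart from the others by Dixon's criterion, which chance alone meets in about 1 of 20 groups. In Q4 cells preparation 2 was high for Dusp6 (2.98), Gxylt2 (2.48) and Rasl11a (2.63), and preparation 1 was low for Rest (1.03) and for Iah1 (8.03). In Q2 cells preparation 2 was the only one with Cryab (0.327) and preparation 1 was low for Upp1 (2.94).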

How the results depend on the processing

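The count of 32 genes between Q2 and Q4 fell to 5 without the replicate block, 17 with a pseudocount of 10, 7 without a filter on low values and 6 with the log2 of the mean FPKM. It was 4 to 22 when 1 preparation was left out, and 23 to 45 under the other alternatives. The lowest of these, 23, came from the Q2 and Q4 means alone, and 17 of those genes were among the 32. Of 477 refits of called genes, 238 kept the call, 239 lost it and 0 changed direction. The step test gave 0 genes in each setting, and 0 again when any 1 preparation was left out. The test against Q1 minus Q3 gave 0 in its main form and 1 with a pseudocount of 0.1, with the filter of 75 cells and without cells matching another cell type. Among uncalled genes, Neurog3 ranged from -0.26 to 0.0059, Mki67 from -0.54 to 0.192 and Rsad2 from -0.0125 to 0.588 with 1 preparation left out, and with the log2 of the mean FPKM Mki67 was 0.0322 and Rsad2 -0.0809. The cause was not tested. With 4 preparations of 15 to 21 cells per quartile, and transcripts missed in single cells, small differences were not detectable.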
